A study of Mus musculus with 8 samples.

Results

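The 59 potassium channel genes described here are those read by the 65 probes, of 16361 on the array, whose annotated gene symbol begins with Kcn and a further letter. They encode the pore-forming subunits of the voltage-gated, inwardly rectifying, two-pore-domain and calcium- or sodium-activated families, or accessory subunits, apart from 2 long noncoding RNAs annotated on the strand opposite Kcnmb4. Values were present at both times for 57 of the 59 genes. RNA came from mpkCCDc14, a single mouse cell line of the kidney cortical collecting duct, grown as an epithelial layer on collagen-coated filters and kept in medium with steroid-stripped serum without dexamethasone before treatment. One group of 4 arrays compared cells given aldosterone, the adrenal mineralocorticoid hormone, at 1 µM for 6 h with cells given ethanol vehicle for 6 h. The other group of 4 arrays made the same comparison after 1 h. Aldosterone cDNA carried the dye Cy5 and vehicle cDNA Cy3 on every array, so positive log2 ratios mark genes with more signal in aldosterone-treated cells.

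Potassium channels let potassium ions pass down their electrochemical gradient and so set the membrane voltage of most cells. In the principal cells of the collecting duct, sodium enters through the epithelial sodium channel, the sodium pump loads the cell with potassium, and apical potassium channels let that potassium leave into the urine. Aldosterone is the hormone best known for raising this secretion. Kcnj1 encodes ROMK, the apical secretory channel of principal cells, and Kcnma1 the pore of the large-conductance BK channel, which secretes potassium when tubular flow is high. Kcnk1 encodes TWIK, a weakly inward-rectifying two-pore channel found along the nephron, and Kcne1 an accessory subunit that slows and enlarges the current of the channel encoded by Kcnq1. Most other members are best known from neurons, heart or muscle.

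The table gives ratios and no intensities, so the level of each channel in these cells, and whether its probe was above background, are unknown, and the principal cell identity could not be checked by level. Median ratios of the arrays ran from -0.0048 to 0.0056, and the standard deviation over probes from 0.310 (replicate 3 at 6 h) to 0.589 (replicate 4 at 1 h). The dyes were not exchanged, so a gene's dye difference and its hormone response cannot be told apart. Whether the replicates are separate cultures is not said in the labels, and the p-values then cover only the spread among these arrays, whose number (4 per time) limits the precision. Each mean is given ± its standard error in limma's fit of the 8 arrays (n = 4 at each time). Adjusted p-values come from limma, with Benjamini-Hochberg adjustment over 15078 features. A gene is called above or below vehicle where that adjusted p was under 0.05.

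At 6 h limma placed 3 potassium channel genes above vehicle and 11 below it, while 43 did not pass. That is 24.6% of the channel genes, where 17.8% of all features were called. Of the channel genes 5.26% were called above and 19.3% below at 6 h, against 7.13% and 10.7% of all features. At 1 h limma placed 4 channel genes above vehicle and 17 below, and the other 36 did not pass. That is 36.8% of them, where 41% of all features were called: 7.02% above and 29.8% below, where 20% and 21% of all features were. At an unadjusted p under 0.05 the counts were 22 of 57 at 6 h, where 34.5% of all features were, and 32 of 57 at 1 h, where 50.8% were. The median log2 ratio of the 57 genes was -0.12 at 6 h and -0.20 at 1 h, where the medians of all features were 0.00 and 0.00. The channel medians were below 0 on all 8 arrays, from -0.11 to -0.06 on the 6 h arrays and from -0.25 to -0.07 on the 1 h arrays. These shares and medians are descriptions, since the genes are not replicates. Most counts fell when an array was left out, which also leaves fewer arrays at that time. The 11 genes below at 6 h were 7, 5, 8 and 6 without replicates 1 to 4 in turn. The 17 below at 1 h were 13, 17, 10 and 11, and the 4 above were 3, 1, 3 and 1. The same counts over all features are not given here. These counts therefore do not show whether the channel calls rest on particular arrays.

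**Figure D1:**
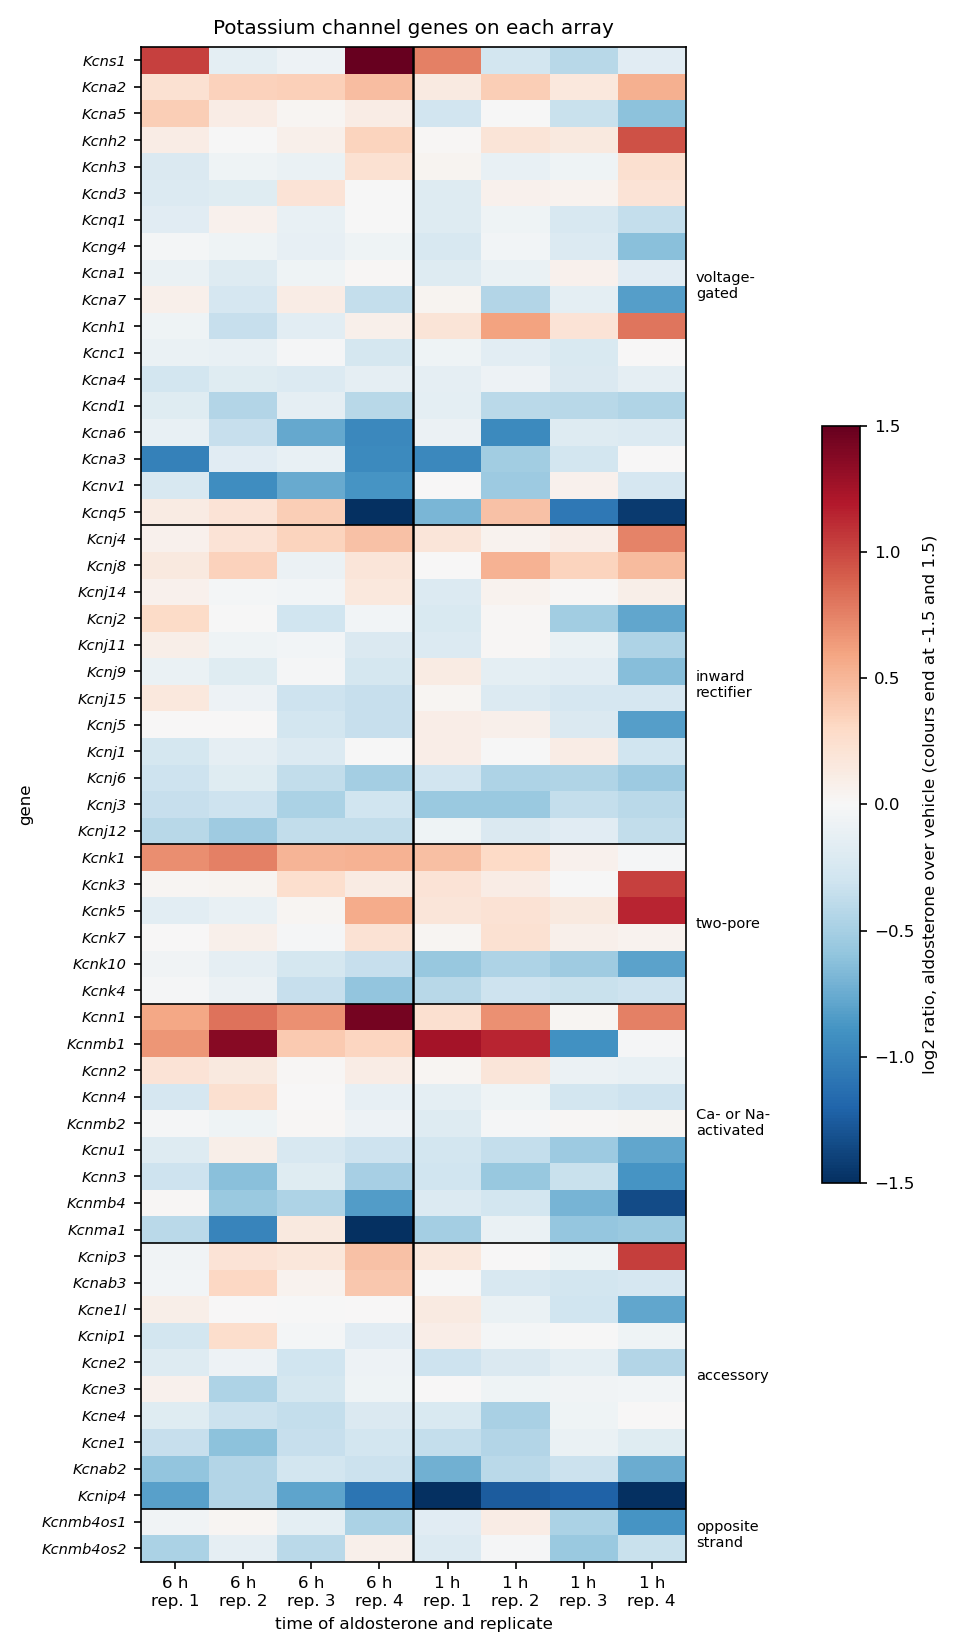
Log2 ratios of aldosterone over vehicle for the 57 potassium channel genes (rows, by structural family and then by mean ratio at 6 h) on the 8 arrays (columns, 6 h left of 1 h). Red is above vehicle and blue below, and values past either end of the scale take its end colour. Blue cells outnumber red ones, Kcnk1, Kcnn1 and Kcna2 are red on all 4 arrays at 6 h, and Kcnip4 is blue on all 8.

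**Figure D2:**
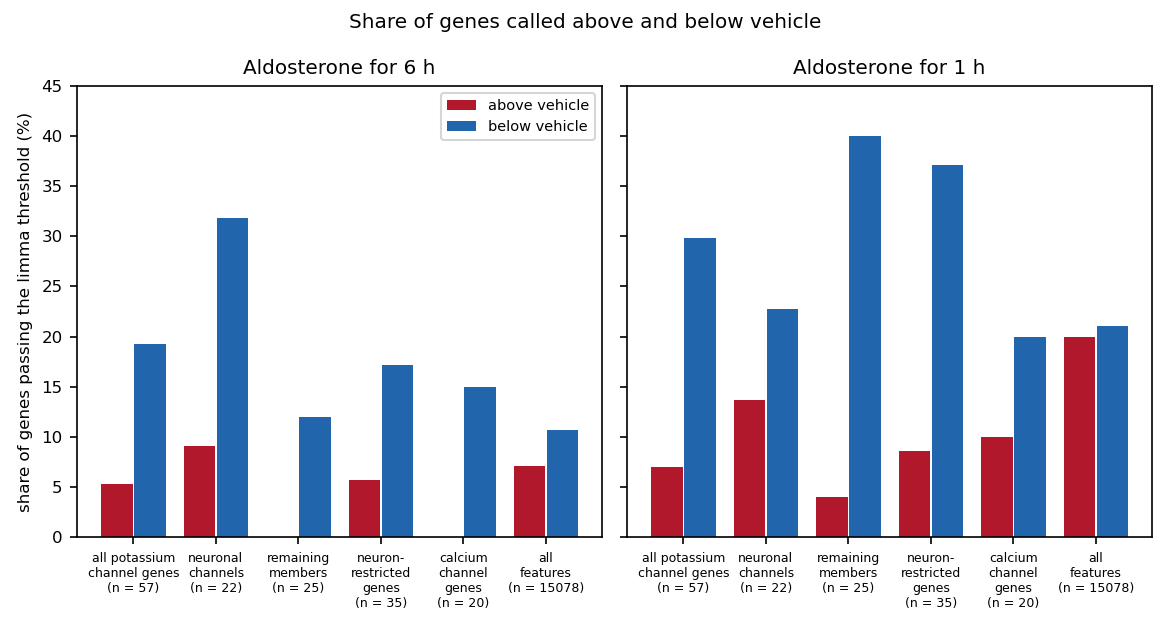
Share of genes (%) that passed limma's threshold above vehicle (red) and below vehicle (blue) at 6 h (left) and 1 h (right), with the number of genes tested under each group. Among the 57 channel genes the blue share exceeds the red one at both times, 19.3% against 5.26% at 6 h and 29.8% against 7.02% at 1 h.

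Among the 4 renal channels, Kcnk1 was the one above vehicle. Its log2 ratios at 6 h were 0.70, 0.75, 0.51 and 0.52 on replicates 1 to 4, and at 1 h they were 0.45, 0.30, 0.06 and -0.02. All 6 h arrays were above all 1 h arrays. The mean was 0.62 ± 0.09 at 6 h, or 1.54-fold (adjusted p = 0.00312), and 0.20 ± 0.09 at 1 h, which did not pass (adjusted p = 0.0988). The 6 h call held without each of the 4 arrays in turn and under the alternatives tried. With arrays weighted by their spread the 1 h value was 0.24 and passed (adjusted p = 0.0363).

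Kcnj1, the ROMK gene, had log2 ratios of -0.26, -0.13, -0.20 and -0.01 at 6 h and of 0.10, -0.01, 0.11 and -0.30 at 1 h. The 6 h values were small and below 0, and the 1 h values lay on both sides of 0. Neither mean passed, with -0.15 ± 0.08 at 6 h (adjusted p = 0.225) and -0.024 ± 0.08 at 1 h (adjusted p = 0.83). The sign of the 1 h mean turned with the scaling of the arrays, to 0.0097 with arrays scaled to one spread, 0.0086 with quantile normalization and 0.049 with array weights.

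The upstream sequences of Kcnk1 and Kcnj1 are shown as those of the renal channel that was above vehicle at 6 h and of the main secretory channel, which did not pass. Each is the 250 bases before 1 RefSeq transcription start in build GRCm38.p6, plus strand, at chr8:125994852-125995101 for Kcnk1 and chr9:32393735-32393984 for Kcnj1. Both windows lie inside the annotated gene, which begins at chr8:125993655 for Kcnk1 and at chr9:32372418 for Kcnj1. The sequence before those gene starts is therefore not described here. Capitals mark the half-site of the steroid receptor response element, AGAACA or its reverse complement TGTTCT.
Kcnk1: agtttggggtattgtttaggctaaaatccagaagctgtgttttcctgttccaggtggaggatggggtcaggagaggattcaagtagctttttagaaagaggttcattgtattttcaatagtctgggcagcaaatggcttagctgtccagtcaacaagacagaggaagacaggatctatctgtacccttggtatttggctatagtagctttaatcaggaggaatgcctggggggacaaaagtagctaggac
Kcnj1: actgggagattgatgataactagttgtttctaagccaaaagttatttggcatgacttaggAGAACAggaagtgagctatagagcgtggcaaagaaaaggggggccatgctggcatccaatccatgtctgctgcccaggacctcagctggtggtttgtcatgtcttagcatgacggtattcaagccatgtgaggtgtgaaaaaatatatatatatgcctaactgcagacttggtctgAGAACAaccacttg
The Kcnk1 window held no half-site. The Kcnj1 window held 2, which begin 190 and 14 bases before the transcription start that ends the window. RefSeq windows were found for 46 of the 59 genes, and 14.1% of their 64 windows held a half-site, against 16.1% of all 32851 windows of the same length. The palindrome of both half-sites, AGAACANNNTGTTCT, was in 0 of the 64 windows and in 3 of all windows. A match to these letters is a description of the window and does not show that a receptor binds there.

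Kcne1, the accessory subunit, was below vehicle at both times. Its log2 ratios were -0.34, -0.61, -0.35 and -0.28 at 6 h and -0.36, -0.44, -0.10 and -0.18 at 1 h, all 8 below 0. The mean was -0.40 ± 0.08 at 6 h (adjusted p = 0.0121) and -0.27 ± 0.08 at 1 h (adjusted p = 0.0254). The 6 h call ended without replicate 2 (-0.32, adjusted p = 0.0557), and the 1 h call without replicate 1 (-0.24, adjusted p = 0.0871) or replicate 2 (-0.21, adjusted p = 0.101) and with each time fitted alone (0.0532). The pore gene it is known to pair with, Kcnq1, had a mean of -0.06 ± 0.07 at 6 h (adjusted p = 0.594). At 1 h Kcnq1 was below vehicle at -0.22 ± 0.07 (adjusted p = 0.0351). That call ended without replicate 1 (adjusted p = 0.0755), replicate 3 (0.102) or replicate 4 (0.105), with arrays scaled to one spread (0.0614), quantile normalization (0.0582) or each time fitted alone (0.0791). Kcne3, another accessory subunit of that channel in epithelia, did not pass at -0.18 ± 0.08 at 6 h (adjusted p = 0.156) and -0.04 ± 0.08 at 1 h (adjusted p = 0.74).

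Kcnma1, the BK pore, was read by 2 probes that gave different answers. One probe had log2 ratios of -0.58, -1.98, 0.18 and -3.63 at 6 h and of -0.95, -0.28, -1.08 and -1.10 at 1 h. The other stayed near 0, from -0.22 to 0.11 at 6 h and from -0.08 to 0.07 at 1 h. Averaged over both, the gene stood at -0.76 ± 0.24 at 6 h (adjusted p = 0.0582) and at -0.44 ± 0.24 at 1 h (adjusted p = 0.174), and neither passed. Without replicate 3 the 6 h mean was -1.06 and passed (adjusted p = 0.0225). With arrays scaled to one spread it was -0.75 and passed (adjusted p = 0.0292), and with quantile normalization it was -0.64 and passed (adjusted p = 0.0332). At 1 h it passed with each time fitted alone (adjusted p = 0.0214), and SAM called the gene below vehicle at both times. Tested by itself, the more variable probe did not pass at 6 h (adjusted p = 0.0568) or at 1 h (adjusted p = 0.177).

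Kcnmb1 encodes the beta subunit that raises the calcium sensitivity of the BK channel and is best known from smooth muscle. It was singled out after its values were seen. Its log2 ratios at 6 h were 0.66, 1.37, 0.39 and 0.32, all above 0, with a mean of 0.69 ± 0.32 that did not pass in limma (adjusted p = 0.159), while SAM called it above vehicle. At 1 h the arrays disagreed: replicates 1 and 2 had 1.25 and 1.14, whereas replicates 3 and 4 had -0.91 and -0.02 (mean 0.37 ± 0.32, adjusted p = 0.377). Sgk1, the kinase that aldosterone is known to raise, had 2.65, 2.00, 1.53 and 1.46 at 6 h and split the 1 h arrays in the same places, with 1.65, 1.38, -0.64 and -0.16. Tsc22d3, from the list of secretion partners described below, had 1.01, 0.88, -0.60 and -0.15 at 1 h. The share of all features that split the 1 h arrays in this way is not given here. A link between Kcnmb1 and these genes was not tested. Kcnmb4, a BK beta subunit known from neurons and intercalated cells, had 0.02, -0.56, -0.46 and -0.84 at 6 h and -0.21, -0.28, -0.70 and -1.34 at 1 h. At 6 h it stood at -0.46 ± 0.18 (adjusted p = 0.11) and passed with arrays scaled to one spread (-0.49, adjusted p = 0.0193), with quantile normalization (-0.47, adjusted p = 0.0355) or with array weights (-0.43, adjusted p = 0.0401). At 1 h it was below vehicle at -0.63 ± 0.18 (adjusted p = 0.0221). That call ended without replicate 3 (-0.61, adjusted p = 0.0674) or replicate 4 (-0.40, adjusted p = 0.0874).

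The RNAs on the strand opposite Kcnmb4 also had means below 0 at both times, none of which passed. Kcnmb4os1 stood at -0.16 ± 0.14 at 6 h and -0.36 ± 0.14 at 1 h, and Kcnmb4os2 at -0.23 ± 0.11 at 6 h and -0.28 ± 0.11 at 1 h. Whether the probes of overlapping transcripts tell the strands apart is not given in the sources used here. Kcnmb2, a beta subunit that inactivates the BK channel, had means of -0.04 ± 0.06 at 6 h (adjusted p = 0.718) and -0.04 ± 0.06 at 1 h (adjusted p = 0.636). Its 2 probes differed in sign by little, at -0.09 and 0.02 at 6 h and at -0.10 and 0.02 at 1 h.

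**Figure D3:**
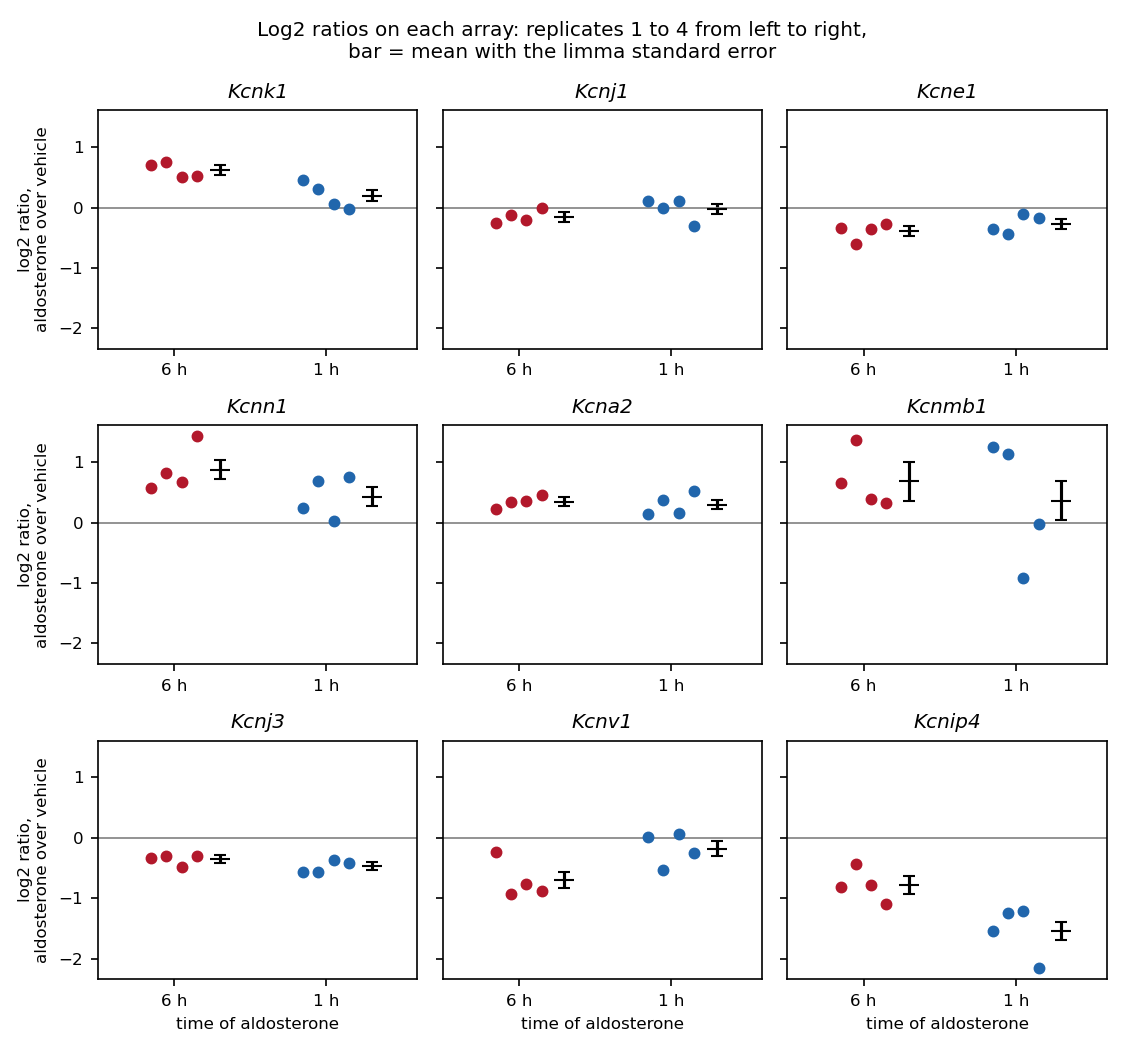
Log2 ratios of aldosterone over vehicle for 9 genes on each array, 6 h (red) left of 1 h (blue), with the mean and its limma standard error as a black bar. Kcnk1 lies between 0.51 and 0.75 at 6 h, above its 1 h arrays, while Kcnmb1 at 1 h has replicates at 1.25 and 1.14 and replicates at -0.91 and -0.02.

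Of the 6 other kidney tubule channels, limma called none at 6 h, where 17.8% of all features were called. There 0 of the 6 had an unadjusted p under 0.05, where 34.5% of all features did. At 1 h limma called 1 of them, Kcnq1, or 16.7%, where 41% of all features were called. Kcnj15, an inward rectifier, had means of -0.15 ± 0.09 at 6 h (adjusted p = 0.297) and -0.17 ± 0.09 at 1 h (adjusted p = 0.168). Kcnn4, the intermediate-conductance calcium-activated channel, had -0.25, 0.24, 0.01 and -0.12 at 6 h (mean -0.03 ± 0.09, adjusted p = 0.832) and a mean of -0.20 ± 0.09 at 1 h (adjusted p = 0.0913). Kcnk5, a two-pore channel known from bicarbonate transport in the proximal tubule, had -0.16, -0.11, 0.03 and 0.56 at 6 h and 0.18, 0.22, 0.15 and 1.14 at 1 h. Its 1 h mean of 0.42 ± 0.17 did not pass (adjusted p = 0.0722), and replicate 4 was far above the other arrays. SAM, the test named in the labels, called Kcnq1, Kcnj15 and Kcnn4 below vehicle and Kcnk5 above vehicle at 1 h, and called none of the 6 at 6 h. Of all 15078 features SAM called 3846 above and 4145 below at 1 h, and 2307 above and 2805 below at 6 h. Such calls at 1 h were thus common over the whole array.

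Among 22 channels best known from neurons, 2 were above vehicle at 6 h, 7 below and 13 did not pass, or 9.09% above and 31.8% below, where 7.13% and 10.7% of all features were. At 1 h 3 were above, 5 below and 14 did not pass, or 13.6% above and 22.7% below, where 20% and 21% of all features were. The median log2 ratio was -0.27 at 6 h and -0.15 at 1 h for the 4 renal channels, and -0.12 at 6 h and -0.11 at 1 h for the neuronal ones. With each probe counted by itself the renal median was -0.15 at 6 h and -0.0244 at 1 h, and the neuronal one was -0.0825 at 6 h and -0.0325 at 1 h. With 4 renal genes, of which Kcnk1 was above and Kcne1 below at 6 h, the groups do not separate by direction, and no test of that difference was made.

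Kcnn1, a small-conductance calcium-activated channel that shapes the pause after a neuron's spike, had the highest mean at 6 h. Its log2 ratios were 0.58, 0.82, 0.68 and 1.43 at 6 h and 0.24, 0.69, 0.03 and 0.76 at 1 h, above 0 on all 8 arrays. The mean was 0.88 ± 0.15 at 6 h, or 1.84-fold (adjusted p = 0.00676), and 0.43 ± 0.15 at 1 h (adjusted p = 0.0486). The 6 h call held without each array in turn, and the 1 h call ended without replicate 1 (0.49, adjusted p = 0.067), replicate 2 (0.34, adjusted p = 0.163) or replicate 4 (0.32, adjusted p = 0.19) and with array weights (0.33, adjusted p = 0.0717). Of its close relatives, Kcnn3 was below vehicle at both times, with -0.31, -0.63, -0.18 and -0.50 at 6 h and -0.30, -0.57, -0.33 and -0.89 at 1 h. Its mean was -0.41 ± 0.11 at 6 h (adjusted p = 0.0323) and -0.52 ± 0.11 at 1 h (adjusted p = 0.00584), and the 6 h call ended without replicate 1 (adjusted p = 0.0642), replicate 2 (0.122) or replicate 4 (0.119). Kcnn2 did not pass, at 0.12 ± 0.07 at 6 h (adjusted p = 0.243) and 0.00 ± 0.07 at 1 h (adjusted p = 0.981).

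Kcna2, a delayed rectifier of axons, was above vehicle on all 8 arrays, with 0.23, 0.35, 0.36 and 0.46 at 6 h and 0.14, 0.37, 0.16 and 0.53 at 1 h. Its means were 0.35 ± 0.08 at 6 h (adjusted p = 0.0178) and 0.30 ± 0.08 at 1 h (adjusted p = 0.0158). The 6 h call ended without replicate 2, 3 or 4 (adjusted p = 0.0609, 0.0619 and 0.0785), and the 1 h call without replicate 2 (0.0541) or replicate 4 (0.0518). Kcnh1, a voltage-gated channel of the ether-a-go-go family, had -0.06, -0.34, -0.16 and 0.08 at 6 h and 0.19, 0.60, 0.21 and 0.80 at 1 h. Its 6 h arrays all lay below its 1 h arrays. The 6 h mean of -0.12 ± 0.11 did not pass (adjusted p = 0.473), and at 1 h the gene was above vehicle at 0.45 ± 0.11 (adjusted p = 0.0118).

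Kcnip4, a calcium-binding protein that modulates fast-inactivating voltage-gated channels, had the lowest mean at both times. Its log2 ratios were -0.81, -0.44, -0.79 and -1.09 at 6 h and -1.55, -1.25, -1.21 and -2.16 at 1 h, and the times did not overlap. The mean was -0.78 ± 0.15 at 6 h (adjusted p = 0.00977), with vehicle 1.72-fold over aldosterone. At 1 h it was -1.54 ± 0.15 (adjusted p = 0.000801), with vehicle 2.91-fold over aldosterone. Both calls held without each array in turn. Other proteins of this family, given here and below for their kinship after values were seen, did not pass: Kcnip3 stood at 0.19 ± 0.16 at 6 h (adjusted p = 0.435) and Kcnip1 at -0.05 ± 0.09 (adjusted p = 0.7).

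Kcnv1, a silent subunit that forms channels only with partners, was below vehicle at 6 h, with -0.24, -0.93, -0.76 and -0.88. The 6 h mean was -0.70 ± 0.13 (adjusted p = 0.00783), a call that held without each array. At 1 h its values of 0.01, -0.54, 0.06 and -0.25 lay on both sides of 0, and the mean of -0.18 ± 0.13 did not pass (adjusted p = 0.283). Kcna4 and Kcna6, voltage-gated channels of the Shaker family, had the weakest calls below vehicle at 6 h. Kcna4 stood at -0.20 ± 0.06 (adjusted p = 0.047) and Kcna6 at -0.55 ± 0.16 (adjusted p = 0.0467). The Kcna4 call ended without any given 6 h array (adjusted p from 0.1 to 0.138), with each probe by itself (0.051) and with each time fitted alone (0.0691). The Kcna6 call ended without replicate 2 (adjusted p = 0.0823), replicate 3 (0.152) or replicate 4 (0.19) and with each time fitted alone (0.0563).

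Of the 4 subunits of the G protein-gated inward rectifiers, which slow the heart and quiet neurons, Kcnj3 and Kcnj6 were below vehicle at both times. Kcnj3 had -0.34, -0.31, -0.48 and -0.30 at 6 h and -0.56, -0.56, -0.36 and -0.41 at 1 h, and Kcnj6 lay between -0.51 and -0.18 at 6 h and between -0.55 and -0.29 at 1 h. The means of Kcnj3 were -0.36 ± 0.07 at 6 h (adjusted p = 0.00809) and -0.47 ± 0.07 at 1 h (adjusted p = 0.00147), and both calls held without each array. Those of Kcnj6 were -0.34 ± 0.07 at 6 h (adjusted p = 0.0142) and -0.44 ± 0.07 at 1 h (adjusted p = 0.00268), and the 6 h call ended without replicate 3 (0.0552) or replicate 4 (0.0666). The other subunits did not pass. Kcnj9 stood at -0.14 ± 0.11 at 6 h and -0.21 ± 0.11 at 1 h, and Kcnj5 at -0.15 ± 0.14 at 6 h and -0.22 ± 0.14 at 1 h.

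Among the remaining 25 members, 3 were below vehicle at 6 h (12%, where 10.7% of all features were) and none above. Kcnj12, a strong inward rectifier of heart and muscle, had -0.42, -0.53, -0.37 and -0.37 at 6 h, with a mean of -0.42 ± 0.07 (adjusted p = 0.00519) that held without each array. At 1 h it was at -0.21 ± 0.07 (adjusted p = 0.0386). That call ended without replicate 2 (adjusted p = 0.096), replicate 3 (0.0847) or replicate 4 (0.115), with arrays scaled to one spread (0.0689), with quantile normalization (0.0565) and with each time fitted alone (0.0935). Kcnab2, a cytoplasmic beta subunit of Shaker-family channels, was below vehicle on all 8 arrays, at -0.41 ± 0.09 at 6 h (adjusted p = 0.0164) and -0.55 ± 0.09 at 1 h (adjusted p = 0.00253). Its 6 h call ended without replicate 1 (0.0628) or replicate 2 (0.0609). Kcnd1, a fast-inactivating voltage-gated channel, was at -0.29 ± 0.08 at 6 h (adjusted p = 0.035) and -0.36 ± 0.08 at 1 h (adjusted p = 0.00805). The 6 h call of Kcnd1 ended without any given 6 h array (adjusted p from 0.0525 to 0.14) and with each time fitted alone (0.0559).

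At 1 h 10 of these 25 were below vehicle and 1 was above, or 40% and 4%, where 21% and 20% of all features were. Kcnk10, a mechanically gated two-pore channel, had -0.06, -0.14, -0.26 and -0.34 at 6 h (mean -0.20 ± 0.08, adjusted p = 0.104) and -0.57, -0.47, -0.53 and -0.81 at 1 h (mean -0.59 ± 0.08, adjusted p = 0.00134). Its 6 h value passed with arrays scaled to one spread (-0.22, adjusted p = 0.0256), with quantile normalization (-0.23, adjusted p = 0.0256) or with array weights (-0.20, adjusted p = 0.0367). Kcnu1, a channel of sperm, was at -0.16 ± 0.10 at 6 h (adjusted p = 0.26) and at -0.49 ± 0.10 at 1 h (adjusted p = 0.0048). Kcnj2, an inward rectifier that holds the resting voltage of muscle, was at -0.38 ± 0.13 at 1 h (adjusted p = 0.0416). The Kcnj2 call ended without replicate 1 (-0.43, adjusted p = 0.0623), replicate 3 (-0.33, adjusted p = 0.135) or replicate 4 (-0.24, adjusted p = 0.175), and with arrays scaled to one spread (0.0892), quantile normalization (0.0732), array weights (0.0715) or each time fitted alone (0.0675). The one above was Kcnj8, a pore of ATP-sensitive channels in vessels, with 0.01, 0.52, 0.33 and 0.47 and a mean of 0.33 ± 0.10 (adjusted p = 0.0236), lost without replicate 2 (0.0918), replicate 3 (0.0657) or replicate 4 (0.0847).

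In some members the arrays of a time lay far apart. Kcnq5, a voltage-gated channel that carries the neuronal M current, had 0.12, 0.20, 0.37 and -3.51 at 6 h and -0.69, 0.44, -1.07 and -1.44 at 1 h. Kcns1, a silent subunit, had 1.03, -0.15, -0.08 and 2.30 at 6 h and 0.76, -0.28, -0.42 and -0.17 at 1 h. Neither passed at 6 h, with -0.71 ± 0.57 for Kcnq5 (adjusted p = 0.407) and 0.78 ± 0.36 for Kcns1 (adjusted p = 0.155), and the Kcnq5 mean was 0.23 without replicate 4. Replicate 4 at 1 h, the array with the widest spread, held the highest 1 h value of Kcnk5 (1.14), Kcnip3 (1.04), Kcnk3 (1.03) and Kcnh2 (0.96), none of which passed. It also held the lowest 1 h value of other members, such as Kcnip4 (-2.16), Kcnq5 (-1.44) and Kcnmb4 (-1.34). Its channel median of -0.25 was the lowest of the 8 arrays. Kcnq5, Kcns1, Kcnk3 and Kcnh2 were named after their values were seen.

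The test of 6 h against 1 h called 0 of the 57 genes by limma, where 0.0265% of all features were called. At an unadjusted p under 0.05 there were 8 of 57, against 16.1% of all features. SAM called 1, Kcnk10, as higher at 6 h, where of all 15078 features it called 273 higher and 15 lower. The arrays of the 2 times did not overlap for 5 genes: 4 with the 6 h arrays higher, where 5.03% of all features behaved so, and 1 with the 6 h arrays lower, where 4.75% did. Kcnk1 differed by 0.42 ± 0.13 (adjusted p = 0.206), Kcnip4 by 0.76 ± 0.22 (adjusted p = 0.202) and Kcnk10 by 0.39 ± 0.11 (adjusted p = 0.202). The Kcnk10 value averages a pair of probes. One probe differed by 0.63 ± 0.17 (adjusted p = 0.202), and its times overlapped. The other differed by 0.16 ± 0.09 (adjusted p = 0.385), and its times did not overlap. Kcna5, a voltage-gated channel of heart and vessels, had 0.37, 0.11, 0.03 and 0.11 at 6 h and -0.29, -0.01, -0.33 and -0.62 at 1 h, a difference of 0.47 ± 0.14 (adjusted p = 0.206). Kcnh1 was the gene with lower 6 h arrays, by -0.57 ± 0.16 (adjusted p = 0.202). Kcna5 was named after its values were seen. Its 1 h mean of -0.31 ± 0.10 passed (adjusted p = 0.0295) but not without replicate 1 (0.0679), replicate 3 (0.0824) or replicate 4 (0.111), with arrays scaled to one spread (0.0508) and with each time fitted alone (0.063).

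**Figure D4:**
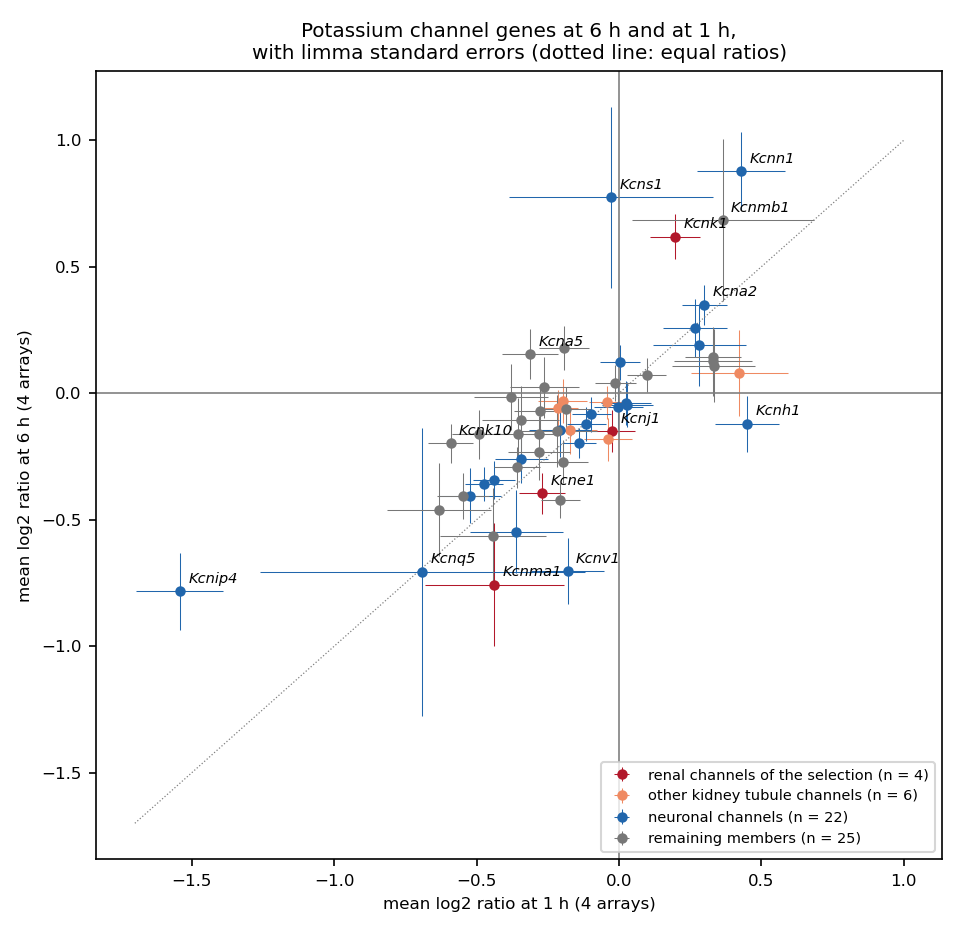
Mean log2 ratio of each potassium channel gene at 6 h (vertical axis) and at 1 h (horizontal axis), with limma standard errors and colours for the 4 groups. Kcnk1 and Kcnn1 lie above the dotted line of equal ratios, Kcnip4 is far to the left at -1.54 on the 1 h axis, and the 4 renal channels are spread from -0.76 to 0.62 on the 6 h axis.

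Of the 57 genes, 10 passed at both times, all 10 in the same direction, 4 passed at 6 h alone and 11 at 1 h alone. Of all 15078 features, 1830 (12.1%) passed at both times, and 1824 of those did so in the same direction. A further 855 features passed at 6 h alone and 4350 at 1 h alone. A further description is the sign on every array: 14 genes were below 0 on all 8 arrays, where 15.1% of all features were, and 3 were above 0 on all 8 (Kcna2, Kcnj4 and Kcnn1), where 14.6% were. The calls below vehicle came from 4 of the 5 structural families at 6 h: 4 of 18 voltage-gated genes, 3 of 12 inward rectifiers, 1 of 9 calcium- or sodium-activated genes and 3 of 10 accessory subunits, a class from which the BK beta subunits are left out as they are counted with the calcium-activated genes. These shares are 22.2%, 25%, 11.1% and 30%, where 10.7% of all features were below. Among the 6 two-pore genes none was below vehicle at 6 h as fitted here, while 3 of them had an unadjusted p under 0.05 in either direction. Kcnk10 and Kcnk4 were below at 6 h in limma with scaled arrays, quantile normalization or array weights, and SAM called Kcnk10 below. At 1 h 2 of the 6 two-pore genes were below vehicle and 0 above, or 33.3% below, where 21% of all features were. The other shares below at 1 h were 22.2% for voltage-gated genes and 33.3% for inward rectifiers. They were 33.3% for calcium- or sodium-activated genes and 40% for accessory subunits. The two-pore family had a median of 0.08 at 6 h and 0.15 at 1 h, and the accessory subunits one of -0.17 at 6 h and -0.23 at 1 h.

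Genes restricted to neurons that are not channels, from a list of synaptic, cytoskeletal and transmitter receptor genes, also had more members below vehicle than above. Of 35 measured, 2 were above and 6 below at 6 h, and 3 were above and 13 below at 1 h, with medians of -0.07 and -0.11. They were called in 22.9% of cases at 6 h and 45.7% at 1 h, where 17.8% and 41% of all features were. The shares above were 5.71% at 6 h and 8.57% at 1 h, against 7.13% and 20% of all features. The shares below were 17.1% at 6 h and 37.1% at 1 h, against 10.7% and 21%. Of 20 voltage-gated calcium channel genes, 0 were above and 3 below at 6 h, and 2 were above and 4 below at 1 h (medians -0.07 and 0.00). Of 8 voltage-gated sodium channel genes 1 was below at 6 h and 1 at 1 h, and of 11 chloride channel genes 2 were below at 6 h, while 2 were above and 1 below at 1 h. The shares called were 15% at 6 h and 30% at 1 h for calcium channels, 12.5% at both times for sodium channels, and 18.2% at 6 h and 27.3% at 1 h for chloride channels. No test set the potassium channel genes apart from these families.

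For 6 genes 2 probes were measured, and those of some genes disagreed. Both probes of Kcnk4, a mechanically gated two-pore channel of neurons, are annotated to the same RefSeq transcript. One gave -0.26, -0.52, -0.88 and -1.38 at 6 h and between -1.35 and -0.88 at 1 h. The other gave 0.23, 0.34, 0.19 and 0.19 at 6 h and 0.20, 0.27, 0.33 and 0.73 at 1 h, so the probes had opposite signs on every array. Tested by themselves, the first was below vehicle at 6 h (-0.76 ± 0.16, adjusted p = 0.0117) and at 1 h (-1.07 ± 0.16, adjusted p = 0.00166), and the second was above vehicle at 1 h (0.38 ± 0.09, adjusted p = 0.00891) and did not pass at 6 h (0.24 ± 0.09, adjusted p = 0.0916). The averaged gene was at -0.26 ± 0.09 at 6 h (adjusted p = 0.0785) and -0.34 ± 0.09 at 1 h (adjusted p = 0.017). The averaged 1 h call ended without replicate 1 (adjusted p = 0.0582) or replicate 3 (0.0506), and at 6 h the gene passed with arrays scaled to one spread (0.0417), quantile normalization (0.0407) or array weights (0.0387).

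For Kcnk10 1 probe gave -0.97 ± 0.12 at 1 h (adjusted p = 0.00117) and the other -0.21 ± 0.06 (adjusted p = 0.0241), so both were below vehicle but by different amounts. The probes of Kcnh3, a voltage-gated channel of the forebrain, were near 0 and differed in sign at 1 h, at -0.03 and 0.09, and the gene did not pass at either time. For Kcnj9 the probes were at -0.03 and -0.26 at 6 h and at -0.40 and -0.01 at 1 h, and none passed. Kcnk2 and Kcnab1 had values at 1 h alone and were left out of the fit. Kcnk2, a mechanically gated two-pore channel, had -0.47, -0.65, -0.55 and -1.12, all below 0, and Kcnab1, a beta subunit, had 0.07, 0.10, -0.10 and 0.94.

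**Figure D5:**
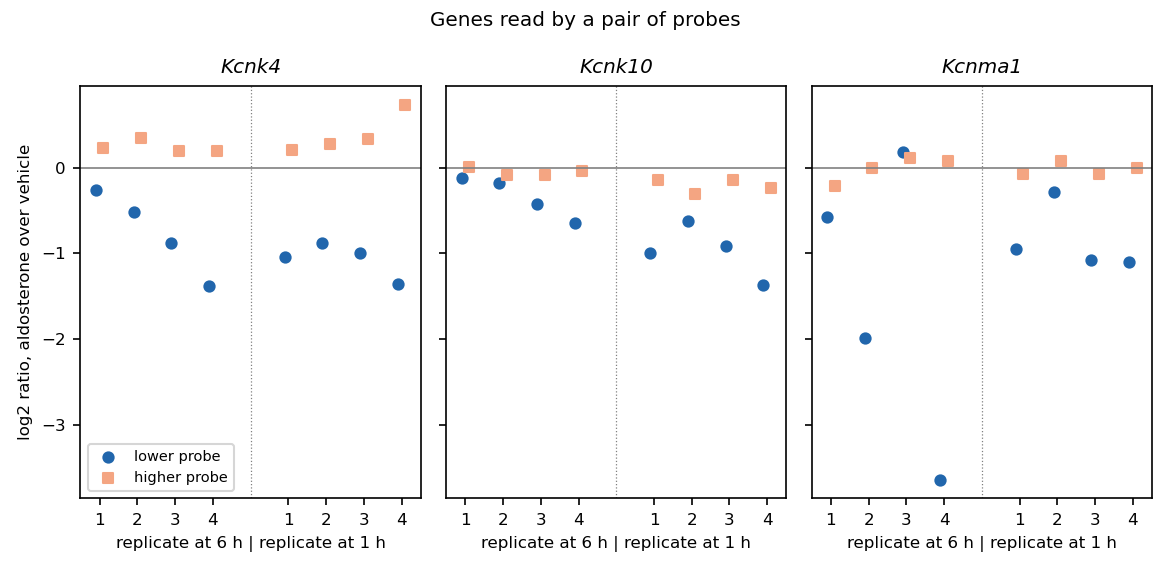
Log2 ratios of the 2 probes of Kcnk4, Kcnk10 and Kcnma1 (circles, the probe with the lower 6 h mean, and squares, the other probe) on replicates 1 to 4 at 6 h (left of the dotted line) and at 1 h. The Kcnk4 probes lie on opposite sides of 0 on all 8 arrays, and the lower Kcnma1 probe spreads from -3.63 to 0.18 at 6 h.

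Partners of the channels in potassium secretion were read from a list of 24 genes for sodium entry, the sodium pump, hormone sensing, regulatory kinases and potassium chloride cotransport, of which 17 were measured. At 6 h 5 were above vehicle and none below by limma (29.4% above, where 7.13% of all features were above and 10.7% below), with 6 at an unadjusted p under 0.05 and 1 below by SAM. They were Scnn1a (1.47 at 6 h), a subunit of the epithelial sodium channel, Atp1b1 (1.35), a subunit of the sodium pump, the kinase gene Sgk1 (1.91), the leucine zipper gene Tsc22d3 (1.27), and Stk39, a kinase of salt transport, which stood at 0.25 at 6 h and 0.21 at 1 h. At 1 h 4 were above and 3 below, or 23.5% and 17.6%, where 20% and 21% of all features were. Those above at 1 h were Scnn1a (0.42), Atp1b1 (0.835), Stk39 and the cotransporter gene Slc12a7 (0.23, adjusted p = 0.0499). Sgk1 (0.56, adjusted p = 0.227) and Tsc22d3 (0.285, adjusted p = 0.344) did not pass at 1 h. Both were above 0 on 1 h replicates 1 and 2 and below 0 on replicates 3 and 4. Those below at 1 h were Scnn1g, another subunit of the epithelial sodium channel (-0.50, adjusted p = 0.00962, and -0.27 at 6 h, adjusted p = 0.144), the kinase gene Oxsr1 (-0.26) and the kinase gene Src (-0.26). Scnn1b, a further subunit of the sodium channel, did not pass at either time. The 4 above at 1 h were 1 without replicate 1 and 2 without replicate 4. The list median was 0.06 at 6 h and 0.12 at 1 h. The list was drawn up with earlier results of these arrays known.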

How the data were processed

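Each array compared aldosterone (Cy5) with vehicle (Cy3) of the same time, and the deposited log2 ratios (Cy5 to Cy3) came from GenePix scans normalized by the authors with Bioconductor, per the labels. How they were normalized and background-corrected is not given in the sources used here. Array pairs correlated from 0.308 to 0.707. Probes were named through the platform annotation (13768 with 1 symbol, 13 with several, 2580 with none). Gene identifiers of 13668 probes matched a table of GRCm38.p6, which changed 0 symbols. Probes measured on 3 or more of the 4 arrays at each time were averaged by symbol.

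Limma 3.58.1 (R 4.3.3) was fitted to all 15078 features with a mean per time (6 residual and 3.73 prior degrees of freedom), and its two-sided p-values were adjusted by Benjamini-Hochberg. The fit was tested on simulated data.

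Named genes were the renal and other kidney tubule channels, every member passing at 6 h or for the difference, the 10 highest and 10 lowest passing at 1 h, members whose probes differed in sign, and the extremes at each time (30 genes). Another 4 (Kcna5, Kcnmb1, Kcnq5 and Kcns1) were added after their values were seen. Other members outside this list, such as Kcnk3, Kcnh2 and Kcnj4, were also mentioned after their values were seen. The members and lists were chosen with earlier results of these data known. Alternatives were 3 scalings, complete probes only, unaveraged probes, array weights, robust moderation, separate fits of the times, SAM and leaving out each array. Figures used matplotlib 3.10.9 in Python 3.11.15. Promoter windows were taken from RefSeq.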

Additional observations from a re-analysis of the deposited data

Results flagged for a closer look

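Kcna5 stood apart between the times: all 4 arrays were above 0 at 6 h and all 4 below 0 at 1 h, a difference of 0.47 ± 0.14 that did not pass in limma (adjusted p = 0.206).

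By Dixon's test 1 array lay far from the others in 6 groups of 4 arrays. One of these groups belongs to Kcnq5, a gene named after its values were seen, and the other 5 are among the 60 groups of the genes named by rule, where chance flags about 1 group in 20. Kcnq5 was at -3.51 on replicate 4 at 6 h, against 0.12 to 0.37 on the others. Kcnk5 was at 1.14 on replicate 4 at 1 h, against 0.15 to 0.22. Kcna6 was at -0.95 on replicate 2 at 1 h, against -0.21 to -0.09. Kcnma1 was at -0.105 on replicate 2 at 1 h, against -0.58 to -0.51. Replicate 1 at 1 h held the flagged values of Kcnd1 (-0.15, against -0.45 to -0.41) and Kcnj15 (0.03, against -0.25 to -0.21). What set these arrays apart was not tested.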

How the results depend on the processing

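Signal over background is unknown for every probe, 4 arrays per time limit the precision, and no dye swap was made. No paired analysis was possible because the titles number replicates 3 and 4 at 6 h and none at 1 h. Values on all 8 arrays only left the same 57 genes, and median centring and robust moderation changed no count of potassium channel genes. At 6 h 18 were below vehicle with arrays scaled to one spread and 18 with quantile normalization (against 11), while calls below over all features were 2634 and 2573 (against 1610). At 1 h the same settings gave 13 and 14 below (against 17), and 2804 and 3011 over all features (against 3170). Each time fitted alone gave 9 below at 6 h and 12 at 1 h, and 1338 and 2644 over all features. Array weights gave 16 below at 6 h and 19 at 1 h, and 2216 and 3293 over all features. SAM gave 5 above and 16 below at 6 h, 28 below at 1 h and 1 higher at 6 h than at 1 h. Over all features it called 2307 above and 2805 below at 6 h and 4145 below at 1 h (limma 1075, 1610 and 3170). For 6 h against 1 h SAM called 273 of all features higher and 15 lower (limma 3 and 1). Leaving out 1 array gave 2 to 3 above and 5 to 8 below at 6 h, 1 to 3 above and 10 to 17 below at 1 h, and 0 for the difference. For the secretion partners SAM gave 1 below at 6 h and 2 for the difference, array weights 1 for the difference, and both scalings and each time alone 2 above at 1 h. Without 1 array the partners were 4 to 5 above and 0 below at 6 h, and 1 to 3 above and 2 to 3 below at 1 h. The median of all channels at 6 h was -0.0825 by probe and -0.087 with array weights, and -0.13 to -0.0767 without 1 array (-0.24 to -0.15 at 1 h). By probe the renal median at 6 h was -0.15, and the 1 h medians were -0.0244 for the renal and -0.0325 for the neuronal channels. Without 1 array the renal median ran from -0.31 to -0.24 at 6 h and from -0.20 to -0.12 at 1 h, and the neuronal one from -0.14 to -0.11 and from -0.14 to -0.07. Means that changed sign, with none passing, were Kcnh3 at 1 h (-0.00111 with scaled arrays, -0.00268 with quantiles, -0.0314 with weights), Kcnj1 at 1 h (0.00971, 0.0086 and 0.04945) and Kcns1 at 1 h (0.017 with quantiles). Without 1 array others spanned 0: at 6 h Kcnh3 from -0.128 to 0.02, Kcnj2 from -0.117 to 0.08, Kcnk5 from -0.08 to 0.16, Kcnn4 from -0.12 to 0.0433 and Kcnq5 from -1.06 to 0.23. At 1 h they were Kcnh3 from -0.045 to 0.0717, Kcnj1 from -0.0692 to 0.0675, Kcnmb2 from -0.065 to 0.0117 and Kcns1 from -0.29 to 0.103. The Kcnmb1 difference ran from -0.105 to 0.615. The causes were not tested.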
